A study of Homo sapiens with 23 samples.

Results

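The MAL family is a small group of proteolipids that cross the membrane with 4 hydrophobic segments and share the MARVEL domain, a module found in proteins of tight junctions, transport vesicles and synaptic vesicles. The 4 genes described here, *MAL2*, *MAL*, *MALL* and *PLLP*, were chosen as a family by symbol, and the family was chosen because *MAL2* RNA was known to be almost lost where AGO1 and AGO2 are both knocked out. All 4 symbols were found among the 57875 genes listed by Ensembl identifier, and 3 of the 4 had enough counts to be tested. The RNA came from 15 samples of HCT116, a cell line of a human colorectal carcinoma. Wild-type cells and 4 knockout lines were sequenced in 3 biological replicates each. The knockout lines were made from HCT116 by CRISPR-mediated editing and lack AGO1 (*AGO1* knockout cells), AGO2 (*AGO2* knockout cells), AGO1 with AGO2 (*AGO1/2*, the double knockout) or AGO1, AGO2 and AGO3 (*AGO1/2/3*, the triple knockout). The labels name no further treatment. Each genotype is 1 line, and what the edit does and what is particular to the line cannot be told apart. Argonaute proteins (AGO) carry microRNAs to complementary RNAs, and the study compared the lines to ask how steady state RNA levels depend on them.

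MAL-family proteins collect in cholesterol- and sphingolipid-rich membrane patches and help to sort cargo to particular surfaces of polarized cells. MAL is the founding member, first known from T lymphocytes, and is also made in myelin-forming glia and in epithelia that deliver proteins directly to the apical surface. MAL2 serves transcytosis, the route by which cargo such as the polymeric immunoglobulin receptor is carried from the basolateral to the apical surface, and it binds tumor protein D52 (TPD52). MALL, also called BENE, is found with caveolin-1 in raft membranes of epithelial and endothelial cells. PLLP, plasmolipin, is a myelin and epithelial proteolipid with a role in endosomal sorting.

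The genes lie at separate places in the genome, and each has 4 exons in its canonical transcript. *MAL2* (ENSG00000147676) spans chr8:119165034-119245673 on the plus strand of GRCh38 in GENCODE v44. *MAL* (ENSG00000172005) and *MALL* (ENSG00000144063) share chromosome 2, at chr2:95025677-95053992 on the plus strand and chr2:110083870-110116022 on the minus strand. *PLLP* (ENSG00000102934) lies at chr16:57248547-57284672 on the minus strand. Their canonical proteins have 176 residues for MAL2, 153 for MAL, 153 for MALL and 182 for PLLP. MAL2, MAL and MALL were about equally distant from each other, with 41.2% to 41.8% identical residues over the shorter protein. PLLP was farther from all of them, with 26.7% identity to MAL2, 32.0% to MAL and 31.4% to MALL.

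Totals of 27709971 to 45271146 gene counts were obtained in the samples, and the 3 *AGO2* knockout samples were among the deepest. Levels are given in CPM, counts scaled by edgeR's TMM method to a library total of 1000000, and means carry their SD (standard deviation) over 3 samples. Each comparison is a contrast in 1 edgeR quasi-likelihood fit of all 15 samples. A gene is said to be called, or to have risen or fallen, at an adjusted p (Benjamini-Hochberg, over 22842 genes tested) of 0.05 or less. The 4 comparisons with wild type share the same 3 wild-type samples. Whether the samples of different lines overlap is given as description, and the share of all genes without overlap was not counted. RNA of the edited genes followed the labels for *AGO1*, with 32.4 to 36.6 CPM in the 3 lines edited in it against 131 CPM in wild type, and for *AGO3*, with 51.8 CPM in triple knockout cells against 112 CPM. *AGO2* RNA does not check the labels, since its mean was 407 CPM in wild type, 286 in *AGO2* knockout, 339 in double knockout and 538 in triple knockout cells. Among markers of colorectal epithelium, *KRT8*, *KRT18*, *KRT19*, *EPCAM* and *CDH1* were present and *VIL1* did not exceed 0.289 CPM in any sample. The summed level of the 7 epithelial markers was 1720 to 1930 CPM in wild type, 1330 to 1450 in *AGO1*, 1630 to 1830 in *AGO2*, 2160 to 2640 in the double and 1640 to 2120 in the triple knockout. Fibroblast markers (*COL1A1*, *COL1A2*, *PDGFRB* and *DCN*) summed to 11.6 to 30.9 CPM over all samples.

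In wild-type cells *MALL* and *MAL2* were abundant, *PLLP* was low and *MAL* was at the floor of detection. To compare genes, levels were divided by the length of the canonical transcript. Per kilobase, *MALL* had 93.5 CPM, *MAL2* 66.8 CPM and *PLLP* 5.45 CPM in wild type. The 3 *MALL* values per kilobase, 79.5 to 101, lay above the 3 *MAL2* values, 57.3 to 71.9, so that these neighbours in the order did not overlap. In triple knockout cells *MALL* was still first, with 81.5 CPM per kilobase, while *MAL2*, with 0.141, had passed below *PLLP*. With the length of all annotated exons instead, *PLLP* had 0.917 to 0.975 CPM per kilobase in wild type and the order stayed.

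**Figure D1:**
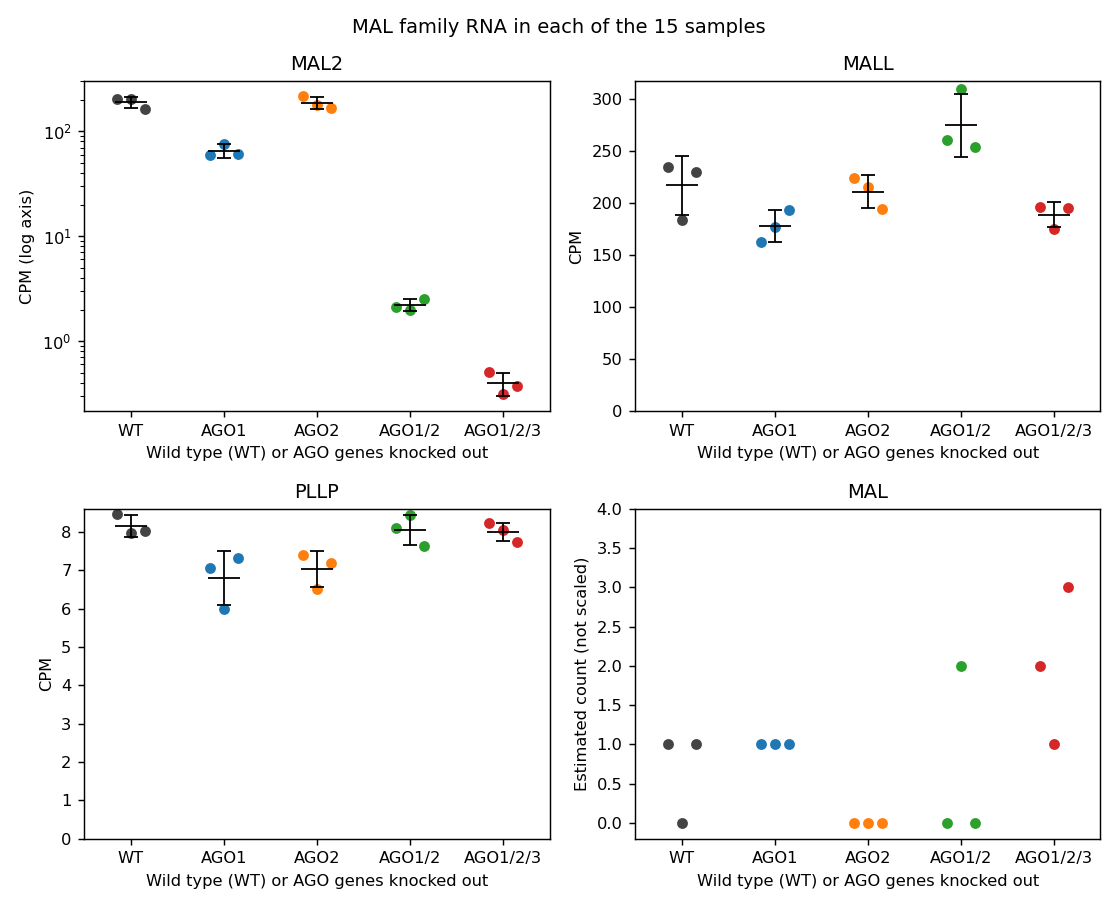
RNA of the 4 genes in each of the 15 samples, as CPM (log axis for *MAL2*, linear axes from 0 for *MALL* and *PLLP*) or as estimated counts for *MAL*. Points are samples, and bars give the mean ± SD of 3 replicates. *MAL2* stands at 162 to 203 CPM in wild type and at 0.315 to 0.51 CPM in triple knockout cells, whereas *MALL* stays between 163 and 310 CPM in all samples.

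*MAL2* was high in wild-type and *AGO2* knockout cells, intermediate in *AGO1* knockout cells, and nearly absent where AGO1 and AGO2 were both lost. The wild-type samples had 202, 203 and 162 CPM. The *AGO2* knockout samples had 217, 178 and 168 CPM, which overlapped with wild type. The *AGO1* knockout samples had 59.3, 76.4 and 60.7 CPM, all below every wild-type sample.

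The lowest levels were in the remaining lines. Double knockout samples had 2.11, 2.0 and 2.54 CPM, which rest on 66, 58 and 69 counts. Triple knockout samples had 0.51, 0.315 and 0.373 CPM, which rest on 20, 9 and 11 counts. These counts lie above the floor of 3 counts per sample, so that *MAL2* RNA was low and still detected in all 15 samples. Relative to the wild-type mean of 189 ± 23.4 CPM (SD, n = 3), the mean was 1.17% in the double and 0.211% in the triple knockout. In bulk RNA, fewer cells with *MAL2* and less *MAL2* RNA per cell cannot be told apart. These differences correspond to log2 fold changes of -6.41 and -8.84, or 85.1-fold and 474-fold lower means. They are the values for which the family was chosen and are given without a test, as is the further step of -2.43 (5.56-fold) from double to triple knockout cells. *MAL2* passed the filter on low counts through the lines in which it is high.

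The family was chosen for *MAL2* values in double and triple knockout cells, but with earlier results of these data known. Tests of *MAL2* in the single knockout lines are therefore not independent of that choice. In *AGO1* knockout cells *MAL2* fell to 65.5 ± 9.51 CPM (SD, n = 3), 34.7% of the wild-type mean. The log2 fold change was -1.53 (standard error 0.14), and the adjusted p from edgeR 8.16e-06. Of all genes tested, 5.5% were called lower and 3.17% higher in this comparison. In *AGO2* knockout cells the mean was 188 ± 26.0 CPM (SD, n = 3) and the log2 fold change -0.01, with a 95% interval from -0.28 to 0.26 and an adjusted p of 0.976 from edgeR. *MAL2* was thus not called, where 8.55% of all genes tested were called higher and 10.8% lower. The files of this line name another quantification mode than the rest, and mode and line cannot be told apart. A direct contrast of both single knockout lines, added after their values were seen, gave a log2 difference of -1.52 for *AGO1* minus *AGO2* knockout cells (standard error 0.14, adjusted p = 4.85e-06 from edgeR), with 9.67% of all genes called lower.

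*MAL2* has an annotated antisense gene, *MAL2-AS1*, which had 0 to 2 counts in any sample.

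*MAL*, the founding member, was at the floor in all lines. It had 1, 0 and 1 counts in the wild-type samples, 1 in each *AGO1* knockout sample and 0 in each *AGO2* knockout sample. The double knockout samples had 0, 2 and 0 counts, and the triple knockout samples 2, 1 and 3. No sample exceeded 3 counts, so *MAL* was not tested and no fold change is given. A gain of *MAL* RNA in the lines with low *MAL2* was not detectable at this depth. The highest level, 0.102 CPM, rests on 3 counts. Defining markers of cells known for *MAL* were scarce or absent as well. *CD3D* was at 0 and *CD3E* did not exceed 0.0368 CPM, whereas *PTPRC* reached 1.69 CPM. Of the oligodendrocyte markers, *MOG* did not exceed 0.548 CPM, while *MBP* reached 72.2 CPM.

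*MALL*, the most abundant member, had line means between 178 and 275 CPM. Wild-type samples had 235, 184 and 230 CPM. The double knockout samples had 261, 310 and 254 CPM, all above wild type, and the triple knockout samples had 196, 175 and 195 CPM, which overlapped with wild type. The 2 lines that had almost lost *MAL2* therefore lay on opposite sides of the wild-type mean for *MALL*.

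*MALL* RNA was not called in any comparison with wild type by edgeR or DESeq2, with unadjusted p in edgeR of 0.0279 in *AGO1* and 0.0098 in double knockout cells. Its log2 fold change in double knockout cells was 0.34 (95% interval 0.12 to 0.57), with an adjusted p of 0.056 from edgeR, where 8.37% of genes were called higher and 8.35% lower. Without wild-type replicate 2, the lowest of the wild-type samples, it was 0.22 (adjusted p = 0.23 from edgeR), and it ranged from 0.22 to 0.40 with single samples left out. In triple knockout cells it was -0.20 (95% interval -0.43 to 0.03), with an adjusted p of 0.195 from edgeR, where 20.3% of genes were called higher and 19.8% lower. Without the same wild-type sample this value became -0.33 and was called (adjusted p = 0.0346 from edgeR). The difference between both lines was called. From double to triple knockout cells, which differ in the labels by AGO3, *MALL* fell from 275 ± 30.3 to 189 ± 12.0 CPM (SD, n = 3). This is a log2 difference of -0.54 (standard error 0.12, adjusted p = 0.00346 from edgeR), in a contrast that called 10.0% of genes lower, and the samples of both lines did not overlap.

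In both single knockout lines the *MALL* mean lay below that of wild type, without a call. The *AGO1* knockout samples had 163, 177 and 193 CPM, with a log2 fold change of -0.28 and an adjusted p of 0.158 from edgeR. The *AGO2* knockout samples had 224, 215 and 194 CPM, with a log2 fold change of -0.04 and an adjusted p of 0.845. Both lines overlapped with wild type. The pseudogene *MALLP2* had a total of 18.0 to 27.0 counts per line and *MALLP1* was listed at 0. Reads shared between these copies could be split by the quantification, and *MALL* itself had at least 4853 counts in each sample.

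*PLLP* was low, and its line means lay between 6.79 and 8.16 CPM. Wild-type samples had 8.48, 7.98 and 8.02 CPM, double knockout samples 8.10, 8.43 and 7.63 CPM, and triple knockout samples 8.22, 8.04 and 7.75 CPM. These knockout lines overlapped with wild type, with log2 fold changes of -0.02 (95% interval -0.23 to 0.19) and -0.03 (95% interval -0.24 to 0.18). The single knockout lines lay slightly below all wild-type samples, with 7.05, 5.99 and 7.32 CPM in *AGO1* and 7.41, 6.51 and 7.19 CPM in *AGO2* knockout cells. These differences of -0.26 and -0.21 on the log2 scale were not called, with adjusted p of 0.153 and 0.163 from edgeR (unadjusted p = 0.0266 and 0.0624). How many of all genes lay apart from wild type in this way was not counted. Neither *MALL* nor *PLLP* thus showed a called increase in the lines with little *MAL2* RNA. The highest upper ends of their approximate 95% intervals in these lines were 0.57 on the log2 scale for *MALL* and 0.19 for *PLLP*. Increases up to these ends are not excluded by the intervals, which are not adjusted for the number of genes.

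**Figure D2:**
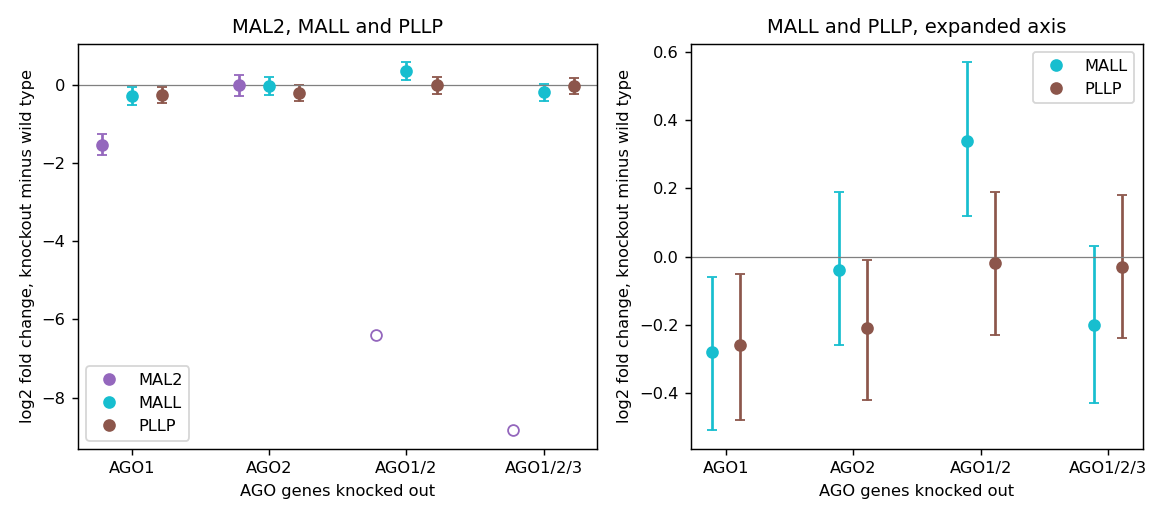
Log2 fold change of *MAL2*, *MALL* and *PLLP* in each knockout line relative to wild type, with *MALL* and *PLLP* repeated on an expanded axis. Filled points carry approximate 95% intervals from the edgeR fit, not adjusted for the number of genes, and open points are *MAL2* values without a test. *MAL2* reaches -6.41 and -8.84, while *MALL* and *PLLP* lie between -0.28 and 0.34.

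*MAL2* lies in the long arm of chromosome 8, and its fall in double and triple knockout cells came with lower RNA from many genes around it. Of 29 other genes within 5 Mb whose mean was 1 CPM or more, 15 (51.7%) were called lower in double and 14 (48.3%) in triple knockout cells. In these lines 1 (*HAS2*) and 4 (*EXT1*, *SNTB1*, *HAS2* and *ZHX1*) of the 29 were called higher. The shares called lower among the 16084 genes at or above 1 CPM were 10.1% and 22.4%. Within 1 Mb, 3 of 5 genes were called lower in each of these lines. The median log2 fold changes of the 29 genes were -0.51 and -0.35, beside 0.02 and 0.03 for all genes at that level. In *AGO1* knockout cells 0 of the 29 were called lower by edgeR or DESeq2 (2 at an unadjusted p under 0.05 in edgeR), 1 was called higher (*TRPS1*, named after its value was seen, 0.97, not called in 3 of 15 fits that left out a sample: without wild-type replicate 1 or 3 or *AGO1* knockout replicate 3) and the median was 0.12, with 6.72% of genes called lower in general. In *AGO2* knockout cells 3 of the 29 (10.3%) were called lower and 3 higher, beside 11.8% called lower in general. Of all 22842 genes tested, without the limit of 1 CPM, 3.17%, 8.55%, 8.37% and 20.3% were called higher in *AGO1*, *AGO2*, double and triple knockout cells. The fall of *MAL2* in *AGO1* knockout cells was thus accompanied by no called decrease of a neighbour within 5 Mb. Copy number was not measured here, and its part in the values of double and triple knockout cells was not tested.

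Individual neighbours of *MAL2* differed in size and direction. *SAMD12*, which encodes a protein with a sterile alpha motif and starts 543 kb before *MAL2*, had 24.3, 27.9 and 23.1 CPM in wild type and 3.03, 3.83 and 3.37 CPM in double knockout cells. In triple knockout cells it had 2.18, 2.26 and 2.64 CPM, with log2 fold changes from wild type of -2.87 and -3.41 (adjusted p = 4.62e-09 and 3.18e-10 from edgeR). *SAMD12* did not share the intermediate level of *MAL2* in *AGO1* knockout cells, where it had 23.1, 24.7 and 27.7 CPM. *TAF2*, a subunit of the general transcription factor TFIID that starts 668 kb after *MAL2*, fell by less, with log2 fold changes of -0.51 and -0.64 (adjusted p = 0.00153 and 5.87e-05 from edgeR). *EXT1*, a heparan sulfate polymerase gene at 1050 kb before *MAL2*, fell by 0.71 on the log2 scale in double knockout cells and rose by 0.98 in triple knockout cells. Among neighbours named after their values were seen, *DEPTOR*, an inhibitor of mTOR, had log2 fold changes of -2.0 and -3.95, and *HAS2*, a hyaluronan synthase, rose by 3.37 and 5.42. The lowest values among the 29 genes were thus -2.87 in double and -3.95 in triple knockout cells, beside -6.41 and -8.84 for *MAL2*.

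**Figure D3:**
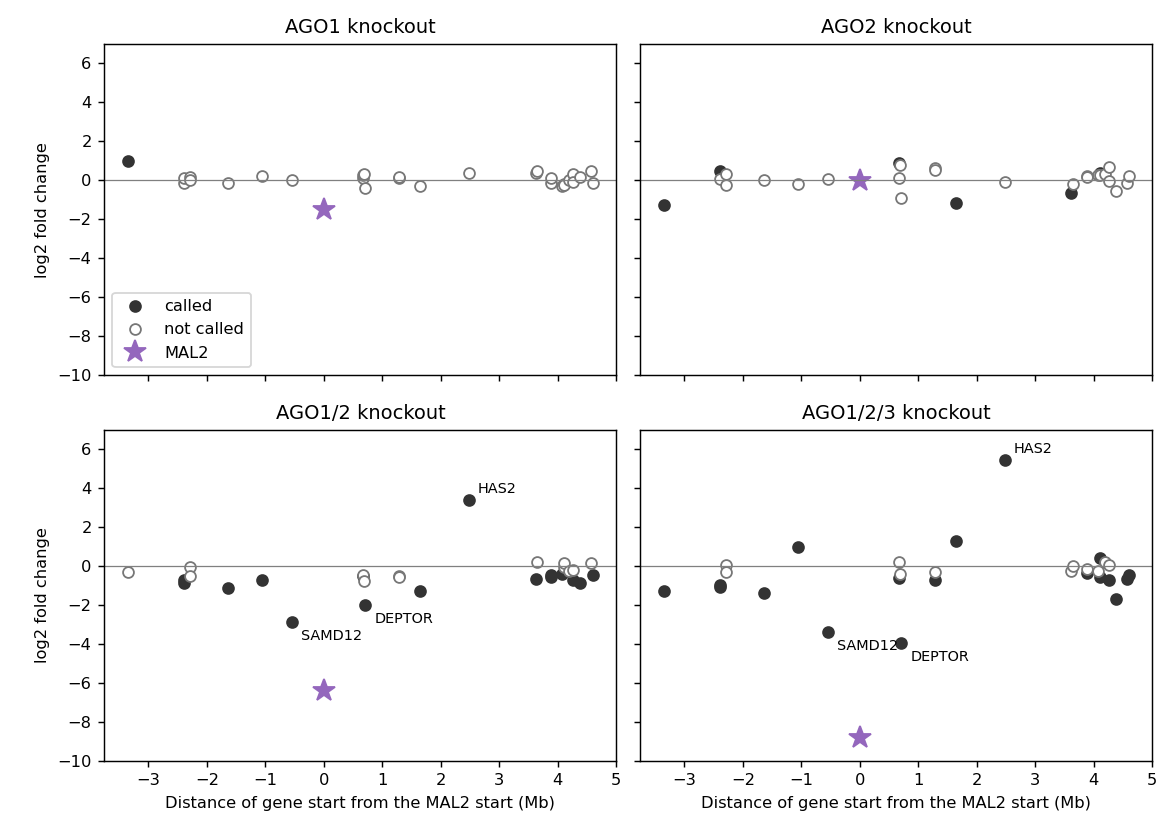
Log2 fold change relative to wild type of the 29 genes at 1 CPM or more within 5 Mb of the *MAL2* start, by distance in Mb, in each knockout line. Filled circles were called, open circles were not, and the star is *MAL2*. In *AGO1* knockout cells the neighbours lie between -0.38 and 0.97 and *MAL2* at -1.53, while 15 and 14 neighbours were called lower and 1 and 4 higher in double and triple knockout cells.

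The wide surroundings of the relatives had lower shares. Within 5 Mb of *MAL*, 7.14% of 56 genes were called lower in double and 17.9% in triple knockout cells. Around *MALL* the shares were 7.55% and 20.8% of 53 genes, and around *PLLP* 5.17% and 13.8% of 58 genes. All of these lie below the shares of 10.1% and 22.4% for genes in general. Within 1 Mb of *MALL*, 2 and 4 of 11 genes (18.2% and 36.4%) were called lower, which is above the general shares. Around *MAL* these shares within 1 Mb were 8.33% and 25.0% of 12 genes, the latter also above. Around *PLLP* they were 2.94% and 20.6% of 34 genes, both below. The nearest neighbours of *MALL* included *LINC01123*, a long noncoding RNA with log2 fold changes of -0.66 and -2.23 in double and triple knockout cells. Beside *PLLP*, the gene of the ARL2-binding protein *ARL2BP* rose by 0.56 in triple knockout cells.

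The genes most like *MAL2* over the 15 samples were *GRHL2*, *LMAN1*, *SAMD12*, *TC2N* and *IQANK1*. Likeness is the Pearson correlation of log2 CPM, computed among 1602 tested genes whose line means span at least 2 log2 units, and it describes these samples, which share their lines. They include the double and triple knockout samples, for whose *MAL2* values the family was chosen. The ranking is therefore not independent of that choice. *GRHL2*, a transcription factor of epithelial differentiation that is also on chromosome 8, came first with r = 0.993. It had 36.6, 27.4 and 31.3 CPM in wild type and 36.3, 24.7 and 25.6 CPM in *AGO2* knockout cells. In *AGO1* knockout cells it was intermediate, with 14.6, 13.6 and 15.5 CPM, and in double and triple knockout cells its means were 2.02 ± 0.187 and 1.11 ± 0.104 CPM (SD, n = 3). Like *MAL2*, *GRHL2* was lower in the *AGO1* knockout samples than in all wild-type samples, but its decrease in the double and triple knockout was smaller than that of *MAL2*.

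*LMAN1*, a cargo receptor between endoplasmic reticulum and Golgi on chromosome 18 (r = 0.985), had a mean of 127 CPM in *AGO1* knockout cells against 170 CPM in wild type, and still had 18.7 CPM in triple knockout cells. *SAMD12* (r = 0.979) had similar means in wild type and *AGO1* knockout cells, 25.1 and 25.2 CPM. *TC2N*, on chromosome 14 (r = 0.977), had means of 22.7 CPM in wild type and 3.63 and 2.67 CPM in double and triple knockout cells. *IQANK1*, on chromosome 8 (r = 0.977), had means of 35.2, 9.81 and 3.50 CPM in the same lines. In *AGO1* knockout cells the mean was 19.8 CPM for *TC2N* and 24.0 CPM for *IQANK1*. The *AGO1* knockout samples lay below all wild-type samples for *LMAN1* and *IQANK1*, but not for *TC2N*.

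**Figure D4:**
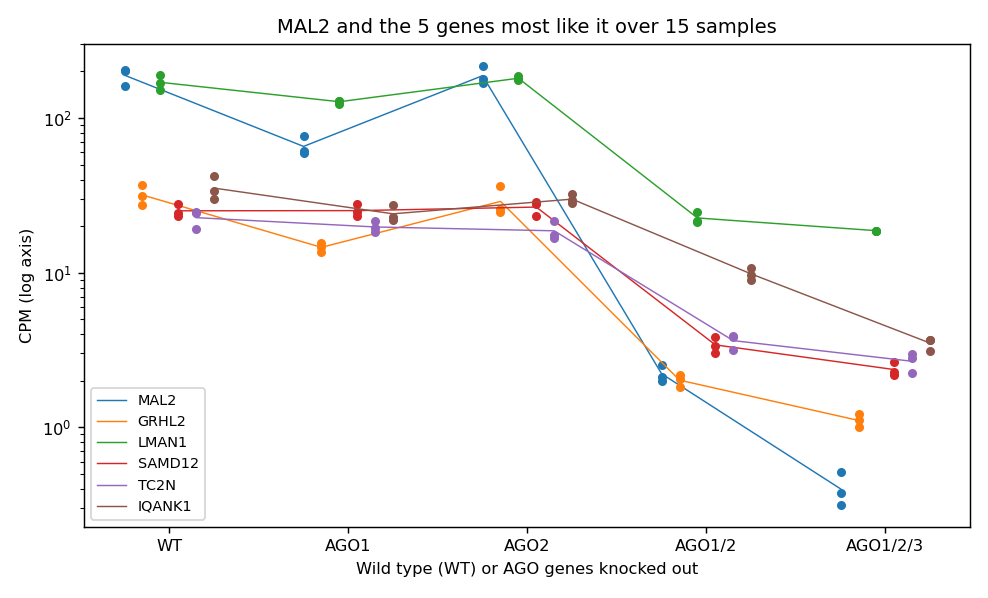
CPM (log axis) of *MAL2* and of the 5 genes with the highest Pearson correlation with it, in the 5 lines. Points are samples and lines join the means of 3 replicates. *GRHL2* shares the lower level of *MAL2* in *AGO1* knockout cells, with a mean of 14.6 CPM against 31.8 CPM in wild type, and *SAMD12* does not. *LMAN1* and *IQANK1* are also below all wild-type samples there, with means of 127 against 170 CPM and 24.0 against 35.2 CPM.

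The line means of *MALL* and *PLLP* do not span so widely, and their likeness was computed among all other tested genes. Their correlations therefore cannot be compared in size with those of *MAL2*. For *MALL* the highest correlations among 22841 genes were with *PNPLA2*, the adipose triglyceride lipase (r = 0.912), *DDOST*, a subunit of the oligosaccharyltransferase (r = 0.907), and *SPDYC* (r = 0.899). Like *MALL*, *PNPLA2* had its highest mean in double knockout cells, 41.2 CPM against 31.9 CPM in wild type. For *PLLP* they were *DUOX1*, a hydrogen peroxide-producing oxidase (r = 0.904), *PPP6R2* (r = 0.879) and *TBC1D17* (r = 0.875). *DUOX1* had means of 8.50 and 8.51 CPM in the single knockout lines and 15.3 CPM in wild type.

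Other proteins with a MARVEL domain include the CMTM group, the tight junction proteins occludin (*OCLN*), tricellulin (*MARVELD2*) and MARVELD3, and the synaptophysin, synaptogyrin and MYADM groups. Of 24 such genes 20 were tested, and *CMTM2*, *CMTM5*, *MYADML2* and *SYNGR4* were not. In double knockout cells 8 rose and 2 fell, and in triple knockout cells 8 rose and 2 fell, with median log2 fold changes of 0.41 and 0.33 beside 0.01 and -0.01 for all genes tested. In *AGO1* knockout cells 1 fell (*CMTM6*, -0.32) and 0 rose. The call of *CMTM6* was lost in 12 of the 15 fits that left out a sample, and without wild-type replicate 2 there were 2 such genes. In *AGO2* knockout cells 4 rose and 0 fell, but 2 rose without wild-type replicate 2 or 3, *AGO2* knockout replicate 1 or triple knockout replicate 2, 1 without *AGO2* knockout replicate 3 and 0 without *AGO2* knockout replicate 2. The increases in *AGO1* and the decreases in *AGO2* knockout cells numbered 0 by edgeR and DESeq2, and 0 at an unadjusted p under 0.05 in edgeR. In double knockout cells 5 rose without wild-type replicate 2 or double knockout replicate 2, and 1 fell without the latter. The increases, 40.0% of the 20 genes in each of the double and triple knockout, stand beside 8.37% and 20.3% of all genes called higher, and the decreases, 10.0% in each, beside 8.35% and 19.8% called lower. The decrease in *AGO1* knockout cells, 5.0%, stands beside 5.5% of all genes, and in *AGO2* knockout cells 20.0% rose beside 8.55%. The list was not tested.

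*MARVELD3* changed in the direction of *MAL2* in double and triple knockout cells. It had 17.3, 14.6 and 16.0 CPM in wild type, 9.07, 9.19 and 8.30 CPM in double and 4.37, 4.02 and 3.47 CPM in triple knockout cells. The log2 fold changes were -0.85 and -2.01 (adjusted p = 6.56e-05 and 4.64e-09 from edgeR). In *AGO1* knockout cells *MARVELD3* had -0.03 and was not called. It rose by 0.36 in *AGO2* knockout cells (adjusted p = 0.0276 from edgeR), a call lost without *AGO2* knockout replicate 2. *OCLN* fell by 0.71 on the log2 scale in triple knockout cells, and by 0.40 (adjusted p = 0.0441 from edgeR) without wild-type replicate 2, the sample with its highest level in wild type. In the opposite direction, *MYADM*, a raft protein of endothelial and myeloid cells, rose from a mean of 69.7 CPM in wild type to 115 and 152 CPM, with log2 fold changes of 0.72 and 1.13 (adjusted p = 0.00255 and 1.52e-05 from edgeR). *CMTM6*, which keeps PD-L1 at the cell surface, rose by 0.54 and 0.98. The MARVEL-domain relatives did not share 1 direction.

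Genes of apical sorting and raft membranes formed the other list, of which 28 of 30 were tested and *LGALS4* and *ANPEP* were not. In double knockout cells 7 rose and 4 fell, with a median log2 fold change of 0.27 beside 0.01 for all genes tested. In triple knockout cells 14 rose and 6 fell, with a median of 0.39 beside -0.01. In *AGO1* knockout cells 3 fell (*FLOT1*, *INF2* and *MUC1*) and 0 rose by edgeR or DESeq2 (1 at an unadjusted p under 0.05 in edgeR). In *AGO2* knockout cells 7 rose and 3 fell, and these counts changed by more than 1.5 times without single samples. Without *AGO2* knockout replicate 2, 1 gene rose and 0 fell. Without *AGO2* knockout replicate 3 it was 3 and 1, and without *AGO2* knockout replicate 1, 5 fell. Leaving out wild-type replicate 1 or 2 left 3 or 2 genes higher. Of the 28 genes, 25.0% rose in double and 50.0% in triple knockout cells, beside 8.37% and 20.3% of all genes, and 14.3% and 21.4% fell, beside 8.35% and 19.8%. A share of 10.7% fell in *AGO1* knockout cells, beside 5.5% of all genes. In *AGO2* knockout cells 25.0% rose and 10.7% fell, beside 8.55% and 10.8%. The shares that fell in triple and *AGO2* knockout cells were thus near those of all genes.

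Among the direct partners of MAL2, *TPD52*, also on chromosome 8, had a mean of 113 CPM in wild type. It fell to 76.9 and 70.5 CPM in double and triple knockout cells, log2 fold changes of -0.55 and -0.68 (adjusted p = 0.00402 and 0.000254 from edgeR). In *AGO2* knockout cells, where *MAL2* was not called, *TPD52* rose to 160 CPM (log2 fold change 0.5, adjusted p = 0.0102 from edgeR). In *AGO1* knockout cells *TPD52* had -0.22 and was not called. Its paralog *TPD52L1* had a log2 fold change of -0.71 in triple knockout cells and was not called elsewhere. *INF2*, a formin that acts with MAL2 in transcytosis, had log2 fold changes of -0.36 in *AGO1*, -0.34 in *AGO2* and 0.36 in triple knockout cells, all called, but the calls were lost in 4, 2 and 1 of the 15 fits that left out a sample. *MUC1*, an apical mucin that is bound by MAL2, was called lower in all 4 lines, from 3.54 ± 0.291 CPM in wild type to means between 1.71 and 2.38 CPM, although the call in *AGO2* knockout cells was lost without *AGO2* knockout replicate 2 (-0.53, adjusted p = 0.0649 from edgeR). *PIGR*, the transcytosed immunoglobulin receptor, was not called in any line. Its line means were only 0.619 to 0.867 CPM, with as few as 12.1 counts in a sample, so the missing call says little.

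Of the small GTPases of apical transport, *RAB25* stood apart. It had 32.7, 35.1 and 36.0 CPM in wild type, 16.5, 20.3 and 21.2 CPM in double and 0.561, 0.35 and 0.305 CPM in triple knockout cells. Like *MAL2*, *RAB25* was lowest in the last line, at -6.36 on the log2 scale (standard error 0.21, adjusted p = 3.48e-11 from edgeR), whereas its value in *AGO1* knockout cells was -0.08 (95% interval -0.35 to 0.20, adjusted p = 0.806). *RAB17*, which acts in transcytosis through recycling endosomes, had log2 fold changes of -0.76 and -2.29, both called. *RAB11A*, a GTPase of recycling endosomes, rose by 0.66 in triple knockout cells.

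Several raft and membrane fusion genes of the list rose in the lines with little *MAL2*. *S100A10*, the partner of annexin A2, had 91.7, 71.9 and 128 CPM in wild type, 271, 222 and 248 CPM in double and 359, 383 and 432 CPM in triple knockout cells. Its log2 fold changes were 1.34 and 2.01 (adjusted p = 9.64e-05 and 4.38e-07 from edgeR). *ANXA2* rose by 1.13 in triple knockout cells, and in double and triple knockout cells *CAVIN1* rose by 0.76 and 1.38, *FLOT2* by 0.84 and 1.10, and *STX3*, the apical syntaxin, by 0.68 and 1.66. *CAV1*, the caveolin found with MALL, was called in *AGO2* knockout cells, where its mean was 516 CPM against 248 CPM in wild type (log2 fold change 1.06, adjusted p = 0.00847 from edgeR). This call was lost without *AGO2* knockout replicate 2 (0.89, adjusted p = 0.0527 from edgeR). In double and triple knockout cells *CAV1* had log2 fold changes of 0.65 and 0.42 (adjusted p = 0.0688 and 0.17 from edgeR). Without wild-type replicate 2, the lowest of the wild-type samples, these became 0.37 and 0.12, and without wild-type replicate 3 the former was 0.83 and called (adjusted p = 0.0377 from edgeR).

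**Figure D5:**
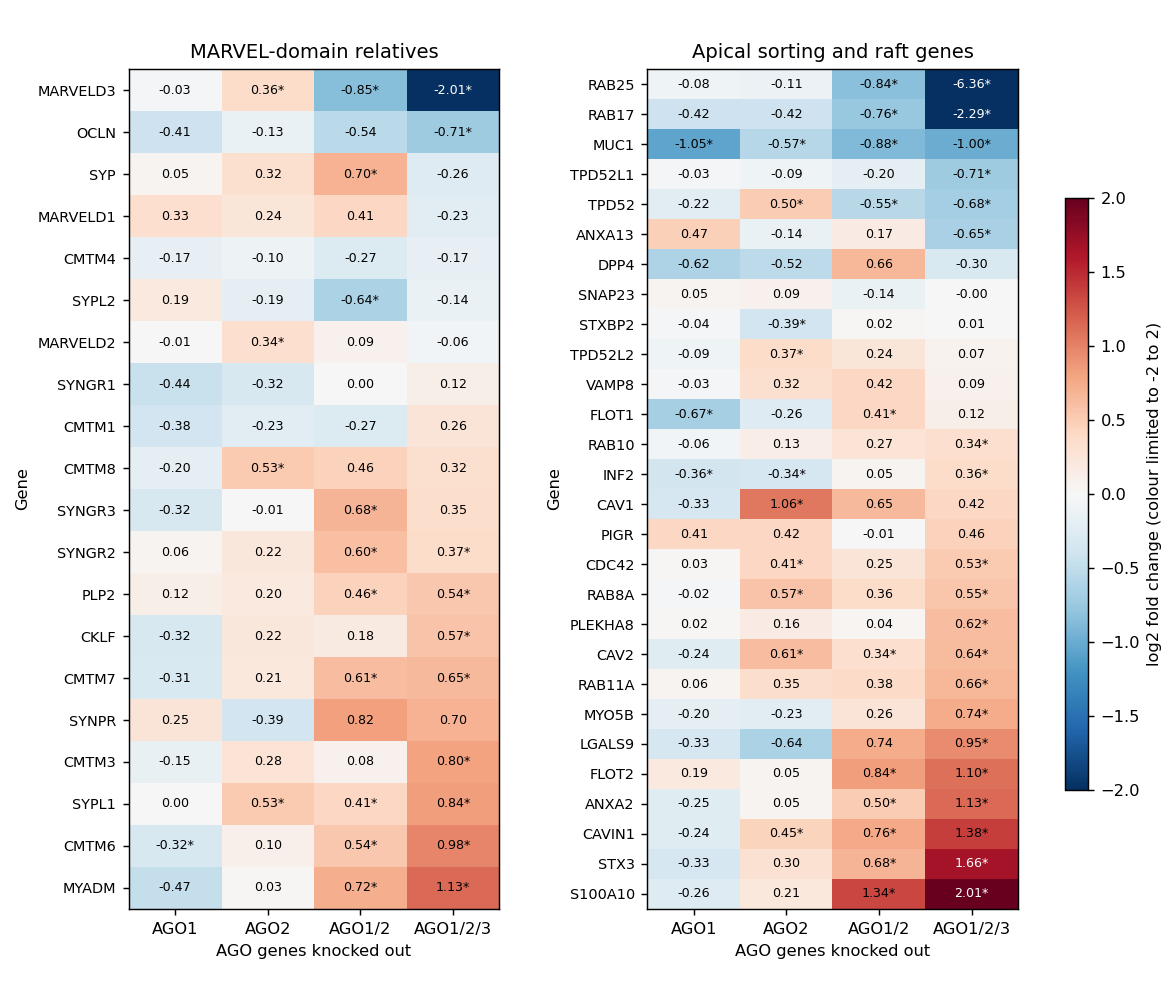
Log2 fold change relative to wild type of the 20 MARVEL-domain relatives and the 28 apical sorting and raft genes tested, in the 4 knockout lines. Columns are lines, rows are genes ordered by their value in triple knockout cells, colour runs from -2 to 2, and asterisks mark called genes. *RAB25* at -6.36 and *S100A10* at 2.01 are the extremes of the second list, and *MARVELD3* at -2.01 and *MYADM* at 1.13 of the first.

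Epithelial identity markers did not share 1 direction in the lines with little *MAL2*. *CDH1*, the gene of E-cadherin, had log2 fold changes of -1.15 in *AGO1*, -0.55 in *AGO2*, -1.66 in double and -3.51 in triple knockout cells (adjusted p = 0.00661, 0.106, 0.000226 and 7.51e-08 from edgeR). The value in *AGO2* knockout cells was -0.27 without wild-type replicate 2 and -0.73, with a call, without wild-type replicate 3. *EPCAM* had -0.33, 0.32, -0.92 and -1.74 in the same order, all called, but the calls in *AGO1* and *AGO2* knockout cells were lost in 14 and 9 of the 15 fits that left out a sample. *KRT8* instead rose by 0.76 in double and 0.41 in triple knockout cells. The latter call was lost in 4 of the 15 fits that left out a sample. *KRT19* rose by 0.64 in double knockout cells and had 0.02, not called, in triple knockout cells. In the same order *KRT18* had 0.39 and 0.28, both not called. *CDX2* had -0.2, not called, and -0.58, called. The part of these markers in the *MAL2* values was not tested.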

How the data were processed

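RNAseq of 15 HCT116 samples was analysed. The 8 eCLIP samples of the series were not analysed here. The authors prepared ribosomal RNA-depleted stranded libraries, sequenced them in paired-end mode, removed low-quality reads and used STAR with hg38 and then Salmon. The estimated counts per gene that the authors deposited come from Salmon and are not scaled for depth. The submitters' processing notes name STAR 2.5.3a, Salmon 0.11.0 and DESeq2, and the versions in the paper's methods differ. Headers of the *AGO2* knockout files name the quantification "quasi" and the others do not. Of each sample's values 30.8% to 33.8% were not whole numbers (no tolerance), and 0 of 105 pairs of files were identical. Totals ran from 27709971 to 45271146 counts per sample.

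Estimated counts were rounded, filtered with edgeR's filterByExpr (22842 of 57875 genes kept), scaled by TMM and fitted with edgeR 4.0.16 in R 4.3.3, using glmQLFit and glmQLFTest, with 1 mean per line and Benjamini-Hochberg adjustment over all genes tested. The biological coefficient of variation was 0.152. Tables used Python 3.11.15, numpy 2.4.6 and pandas 2.3.3, and protein identity used Biopython 1.88 on translated GENCODE v44 canonical transcripts. Log2 CPM for correlations had a prior count of 2. With 3 samples a line, the smallest p of an exact permutation test is 0.1, and none was used. The fit was also run on counts simulated from its own dispersions, which does not check effects of line or quantification mode.

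The family and both gene lists were chosen with earlier results of these data known. Named genes were the 4 members, *AGO1* to *AGO3*, list genes called with a log2 change of 1 or more in size and a mean of at least 1 CPM in any knockout line, the nearest expressed neighbours on each side of each member, and the genes most correlated with each tested member (5 for *MAL2* and 3 for the others). Other genes are named as examples of list counts, or were chosen after their values were seen. Replicates are described as biological, and p-values measure the spread between them within single lines. Alternatives were other scalings, filters, DESeq2 1.42.0, unrounded counts, a replicate block, only the 6 samples compared, a 2-fold threshold and each sample left out. No sequences are printed here. Some genes that the rule or the marker lists include are not reported here.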

Additional observations from a re-analysis of the deposited data

Results flagged for a closer look

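*MAL2* RNA differed between *AGO1* and *AGO2* knockout cells, 1 line each, whose files also name different quantification modes. The direct contrast of *AGO1* minus *AGO2* knockout cells gave a log2 difference of -1.52 (mean 65.5 against 188 CPM, 3 of 3 *AGO1* knockout samples below all *AGO2* knockout samples, adjusted p = 4.85e-06 from edgeR). It was chosen after the values of both lines were seen.

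For *MALL*, triple and double knockout cells differed by -0.54 on the log2 scale (mean 189 against 275 CPM, 3 of 3 samples below all double knockout samples, adjusted p = 0.00346 from edgeR), while neither line was called against wild type.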

How the results depend on the processing

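Of 408 values of *MAL2*, *MALL* and *PLLP* under 23 alternative fits, 389 kept their direction and their side of the threshold or, where untested, moved by less than the spread between replicates. *MALL* in triple knockout cells became called with scaling by total counts (-0.34, adjusted p = 0.0291 from edgeR) and without wild-type replicate 2, and ranged from -0.33 to -0.15 with single samples left out. The others were uncalled values near 0 that changed sign. *MAL2* in *AGO2* knockout cells was 0.01 with DESeq2's size factors or Wald test and 0.03 with no filter on low counts, and -0.16 to 0.05 with single samples left out. *MALL* in *AGO2* knockout cells was 0.0 with no filter and -0.17 to 0.01 with samples left out. *PLLP* ranged from -0.07 to 0.02 in double knockout cells, -0.07 to 0.01 for triple minus double and -0.11 to 0.02 for *AGO1* minus *AGO2* knockout cells. *MAL2* in *AGO1* knockout cells was -1.64 to -1.45 over all alternatives, with adjusted p from 6.46e-21 to 0.00304. The filter of at least 10 counts in every sample removed *MAL2*. Same-numbered replicates did not deviate together (mean r = -0.00669, from -0.218 to 0.291), and a replicate block gave -1.52 for *MAL2* in *AGO1* knockout cells and changed no call of a member. Scaling by total counts moved the median of all genes to -0.10, -0.14, -0.08 and -0.15 in *AGO1*, *AGO2*, double and triple knockout cells, and the share of lower genes among those called from 63.4%, 55.7%, 49.9% and 49.3% to 79.5%, 83.1%, 65.1% and 63.3%.

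Counts of called list genes moved by less than 1.5 times in 327 of 384 alternatives. For MARVEL-domain relatives, the 1 decrease in *AGO1* knockout cells became 0 with DESeq2's size factors, 3 with total counts, 2 with DESeq2's Wald test, 0 with only the 6 samples compared and 0 with a 2-fold threshold, and 0 to 2 with samples left out. The 4 increases in *AGO2* knockout cells became 1 with total counts and 0 with the 6 samples or the 2-fold threshold (0 to 4 with samples left out). In double knockout cells the 8 increases became 4 with the 6 samples and 0 at 2-fold (5 to 9), and the 2 decreases 4 with total counts, 1 with the 6 samples and 0 at 2-fold (1 to 3). In triple knockout cells 1 increase and 1 decrease passed 2-fold (8 to 9 and 2 to 3 with samples left out). For apical sorting genes, the 3 decreases in *AGO1* knockout cells became 1 at 2-fold (2 to 3). In *AGO2* knockout cells the 7 increases became 3 with total counts or the 6 samples and 1 at 2-fold (1 to 8), and the 3 decreases 5 with total counts and 0 with no filter, the 6 samples or 2-fold (0 to 5). In double knockout cells the 7 increases became 3 with the 6 samples and 1 at 2-fold (5 to 10), and the 4 decreases 0 at 2-fold (4 with any sample left out). In triple knockout cells 5 increases and 3 decreases passed 2-fold (12 to 14 and 5 to 6 with samples left out). The 2-fold threshold lowers counts by construction. For the other settings the cause was not tested.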
